A study of Mus musculus with 12 samples.

Results

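The genes described here are 33 cytosolic chaperone and heat shock genes of the mouse, chosen by name from the chaperone families and found on the arrays through the RefSeq accession of each probe. All 33 were on the array with 59 of its 56605 probes, 58 of which were bright enough to be kept, and all 33 were among the 26840 genes tested. The list holds 4 HSP70 genes, 3 HSP110 genes, 3 HSP40 genes, 4 genes of small heat shock proteins and their partner Bag3, 7 genes of HSP90 and its cochaperones, the polyubiquitin gene Ubb, the heat shock factor gene Hsf1, and 8 subunits of the CCT chaperonin, included as a constitutive contrast. Hspd1 and Hspe1, the 2 remaining members, encode the chaperonin of mitochondria and not of the cytosol.

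Molecular chaperones hold, refold or hand on proteins that are not in their folded state. HSP70 proteins work in a cycle with HSP40 partners, which deliver clients and speed ATP hydrolysis, and with HSP110 proteins, which exchange the nucleotide, and they pass some clients on to HSP90. The transcription factor HSF1 binds heat shock elements in DNA, and heat or the loss of proteasome activity is known to raise the inducible genes of this set through it in many cell types. The CCT chaperonin is a ring of different subunits that folds newly made actin and tubulin.

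The cells were mouse embryonic stem cells (ESCs), the pluripotent cells of the early embryo kept in culture. All groups grew in ESC medium with the cytokine LIF and 250 nM PD173074, a compound that blocks FGF receptor kinases. There were 3 arrays in each of 4 groups: combined treatment (1 µM MG132 for 30 min, then 6 h with both MG132 and 250 nM 4OHT), MG132 alone (the same dose for 30 min and then 6 h), 4OHT alone (250 nM for 6 h) and untreated cells, whose titles read 0 h. MG132 is a peptide aldehyde that inhibits the proteasome, and 4OHT is a tamoxifen derivative often used to switch on a protein fused to an altered oestrogen receptor, which the labels used here do not name. No vehicle was named and no untreated group was titled 6 h, so compound and time cannot be told apart in a comparison with untreated cells.

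The arrays lay on 2 slides. Slide 1 held 8 arrays (all untreated and 4OHT arrays, and replicates 1 and 2 of MG132) and slide 2 held 4 (replicate 3 of MG132 and all combined-treatment arrays), so slide and 4OHT could be separated under MG132 only through 1 MG132 array. Between 49.5% and 63.2% of probes were well above background on an array, and signals are given below as multiples of the array's 75th percentile, which was 309 to 485 intensity units. As a check of the cell label, all 10 pluripotent markers were measured, and Pou5f1 had 70.5, 74.3 and 72.0 multiples in untreated cells. The summed signal of the 10 was 524 to 596 multiples with combined treatment, 569 to 586 with MG132, 867 to 930 with 4OHT and 977 to 1023 in untreated cells. With MG132 against untreated cells 9 of the 10 fell, beside 19% of all genes tested. Of 13 fibroblast and feeder markers, 9 were measured, and Col3a1, Lum, Postn and Twist2 were not above background; the summed signal of the 9 was 86.1 to 102 multiples with combined treatment, 72.7 to 77.5 with MG132, 104 to 138 with 4OHT and 66.5 to 90.8 in untreated cells. Vim and Fn1 made up most of that sum, with geometric means of 29.7 and 42.8 multiples in untreated cells. The other markers measured had means there from 0.026 (Dcn) to 1.54 (Thy1), with Col1a1 at 0.034. With 4OHT against untreated cells 4 of the 9 rose and 2 fell, beside 13.9% and 14.7% of all genes tested. The largest rises were those of S100a4 (log2 4.58 ± 0.23) and Thy1 (3.71 ± 0.19). Thy1, a surface protein of fibroblasts and other cells, had 3.99, 3.93 and 5.14 multiples with combined treatment, 3.57, 3.43 and 3.19 with MG132, 16.7, 18.7 and 26.4 with 4OHT and 1.37, 1.45 and 1.85 in untreated cells. Of the 10 pluripotent markers 4 fell with 4OHT and 1 rose, beside the same 14.7% and 13.9% of all genes. The largest fall was that of Nanog (-2.43 ± 0.13), which had 2.01, 1.91 and 1.87 multiples with combined treatment, 5.41, 5.28 and 5.08 with MG132, 2.66, 2.52 and 3.66 with 4OHT and 16.1, 16.5 and 14.3 in untreated cells. The summed signal of 9 primitive endoderm markers was 24.8 to 35.5 multiples with combined treatment and 23.3 to 37.8 with MG132. It was 11.1 to 30.4 with 4OHT and 27.8 to 39.4 in untreated cells. In bulk RNA, fewer cells of a type and less RNA per cell cannot be told apart, and the part of these shifts in the results below was not tested.

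Heat shock elements are alternating units of GAA and TTC spaced by 2 bases. Promoter windows of 300 bases (250 before to 50 from the gene start, RefSeq, build GRCm38.p6) were given for 27 of the 33 members, and were searched on both strands for 2 alternating units (GAANNTTC or TTCNNGAA) and for 3 (GAANNTTC followed by NN and GAA, or TTCNNGAA followed by NN and TTC), which contain the shorter motif. The windows below belong to the neighbouring HSP70 copies Hspa1a (chr17:34972107-34972406, minus strand) and Hspa1b (chr17:34959189-34959488, minus strand), to the HSP110 gene Hsph1 (chr5:149636266-149636565, minus strand), to the cochaperone gene Chordc1 (chr9:18292017-18292316, plus strand) and to the HSP40 gene Dnajb1 (chr8:83607925-83608224, plus strand). They are shown because they hold 2 units, 3 units or no match, and they are printed 5′ to 3′ on the gene's strand with the matched units in capitals.
Hspa1a: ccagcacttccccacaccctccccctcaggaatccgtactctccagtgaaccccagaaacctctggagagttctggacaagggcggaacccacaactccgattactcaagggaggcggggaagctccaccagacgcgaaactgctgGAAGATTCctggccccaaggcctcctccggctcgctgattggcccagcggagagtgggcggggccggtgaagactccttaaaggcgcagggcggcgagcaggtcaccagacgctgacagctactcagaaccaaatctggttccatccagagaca
Hspa1b: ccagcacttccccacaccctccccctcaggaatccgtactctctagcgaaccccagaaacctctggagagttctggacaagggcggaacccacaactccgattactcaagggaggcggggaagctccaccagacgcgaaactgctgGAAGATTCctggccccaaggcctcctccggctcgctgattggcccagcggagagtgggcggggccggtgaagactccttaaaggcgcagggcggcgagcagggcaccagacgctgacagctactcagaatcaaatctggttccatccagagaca
Hsph1: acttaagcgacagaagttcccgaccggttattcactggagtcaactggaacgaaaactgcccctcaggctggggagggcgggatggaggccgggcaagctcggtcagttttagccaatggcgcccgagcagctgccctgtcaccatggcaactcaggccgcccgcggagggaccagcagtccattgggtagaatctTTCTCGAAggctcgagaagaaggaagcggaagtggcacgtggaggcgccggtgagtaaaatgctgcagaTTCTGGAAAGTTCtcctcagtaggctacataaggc
Chordc1: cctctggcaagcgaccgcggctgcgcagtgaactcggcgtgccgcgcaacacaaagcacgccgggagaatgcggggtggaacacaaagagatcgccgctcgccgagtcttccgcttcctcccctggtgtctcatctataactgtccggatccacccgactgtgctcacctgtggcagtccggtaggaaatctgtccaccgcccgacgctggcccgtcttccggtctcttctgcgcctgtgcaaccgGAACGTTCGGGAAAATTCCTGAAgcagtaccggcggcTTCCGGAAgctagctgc
Dnajb1: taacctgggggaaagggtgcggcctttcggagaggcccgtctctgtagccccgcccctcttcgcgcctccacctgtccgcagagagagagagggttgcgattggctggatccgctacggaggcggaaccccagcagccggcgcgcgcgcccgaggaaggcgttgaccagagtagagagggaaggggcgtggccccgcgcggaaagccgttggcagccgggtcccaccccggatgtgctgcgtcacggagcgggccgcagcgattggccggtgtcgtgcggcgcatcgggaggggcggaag

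The Hspa1a and Hspa1b windows were identical at 296 of 300 bases (98.7%), with the 2-unit motif starting at position -104 from the gene start in both. The 3-unit motif was found in 4 of the 27 members (14.8%), which were Chordc1, Hspd1, Hspe1 and Hsph1, against 0.662% of 27025 genes. The matching windows of Hspd1 (chr1:55087883-55088182, minus strand) and Hspe1 (chr1:55087898-55088197, plus strand) overlap. Their matches are the same stretch of DNA read on opposite strands, so it is counted for both genes, here and in the 2-unit count. The 2-unit motif was found in 15 of the 27 (55.6%), against 17.0% of all genes; among the CCT subunits it was in 3 of 7. A match describes letters in the window and not a bound site, and the absence of one in Dnajb1 says only that these letters are not in that window.

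MG132 raised all 3 HSP40 genes and 3 of the 4 HSP70 genes in these cells, and Hspa1a and Hspa1b most. Against untreated cells, 11 of the 33 members rose and 4 fell at an adjusted p below 0.05 (limma across all genes); over all genes tested 24.1% rose and 19% fell, 43.1% in either direction. Those that rose were Hspa1a, Hspa1b, Cryab, Dnajb1, Hspa4l, Dnajb4, Hspa8, Hsph1, Hspb8, Ubb and Dnaja1, and those that fell were Cct3, Fkbp4, Cacybp and Hspa4. By family, 3 of the 4 HSP70 genes rose, also with median centring, quantile normalization or normexp background correction. All 3 HSP40 genes rose, or 2 of them with median centring. Of the 3 HSP110 genes 2 rose and 1 fell, or 1 rose and 1 fell with median centring, and quantile normalization left 2 rises and no fall. Of the 4 small heat shock protein and Bag3 genes 2 rose, or 1 rose and 2 fell with median centring. The median change of the members was 0.11 on the log2 scale, beside 0.07 over all genes. Groups did not overlap for 24 members and for 59.5% of all genes, and 5 members were called with at least a 2-fold change, beside 16% of all genes. The split of calls depends on the scaling. With each array centred on its median, which moved the median of all genes to -0.27, 7 members rose and 15 fell. Both scalings shift all genes of an array alike, so the members' median had to stand 0.04 above that of all genes under either. That gap was 0.01 with normexp background correction, 0.20 with quantile normalization and -0.16 with dim probes kept.

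The members that MG132 raised were also higher where MG132 was given with 4OHT. Combined treatment against 4OHT alone shares no array with the comparison above, but both use the same spread per gene, estimated over all arrays. With combined treatment against 4OHT alone, 12 members rose and 7 fell, where 50.2% of all genes were called, 29.4% up and 20.9% down. The 11 members that rose with MG132 alone were all among these 12, joined by Hsp90aa1, and the 4 that fell with MG132 alone were among the 7, joined by Hspd1, Tcp1 and Stip1. The share of all genes called in both comparisons was not counted, so this overlap has no value over all genes to be set beside. All arrays of the combined treatment lay on slide 2 and all 4OHT arrays on slide 1; with slide as a fixed term, 5 members rose and 3 fell, and 19.9% of all genes were called. Those 5 were Hspa1a, Hspa1b, Dnajb1, Hspa4l and Hspb8. With median centring, 8 rose and 13 fell. The members' median was -0.01, beside 0.13 over all genes, but 0.11 beside 0.01 with normexp background correction. Groups did not overlap for 22 members and 57.5% of all genes, and 6 members were called with at least a 2-fold change, beside 20.1% of all genes.

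Hspa1a, the stress-inducible HSP70, showed the largest change of the 33. It had signals, in the order of replicates 1, 2 and 3, of 33.6, 29.4 and 33.2 multiples on the combined-treatment arrays, 12.7, 13.8 and 19.7 on the MG132 arrays, 0.430, 0.428 and 0.354 on the 4OHT arrays and 0.591, 0.567 and 0.565 on the untreated arrays. The 4 groups did not overlap, and the highest MG132 array was replicate 3, the one on slide 2. Hspa1a was 26.3-fold higher with MG132 than in untreated cells (log2 4.72 ± 0.16, mean ± SE, n = 3 each; limma adjusted p = 9.07e-08) and 79.5-fold higher with combined treatment than with 4OHT (log2 6.31 ± 0.16; adjusted p = 1.57e-08). On slide 1 alone the MG132 difference was 4.53 (adjusted p = 5.07e-05), and with slide as a term the difference between combined treatment and 4OHT was 5.74 (adjusted p = 5.15e-06).

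4OHT moved Hspa1a in opposite directions without and with MG132. It was 1.43-fold lower with 4OHT than in untreated cells (log2 -0.51 ± 0.16; adjusted p = 0.0326) and 2.12-fold higher with combined treatment than with MG132 (log2 1.08 ± 0.16; adjusted p = 9.60e-04). The fall with 4OHT was no longer called with normexp background correction (-0.29; adjusted p = 0.103), nor without untreated replicate 1, 2 or 3 or 4OHT replicate 2 or 3 (adjusted p 0.0517 to 0.0931). Within slide 2, where 1 MG132 array is assumed to vary like the other groups, the difference between combined treatment and MG132 was 0.70 (adjusted p = 0.0613).

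Hspa1b encodes the same HSP70 protein as its neighbour or nearly so, and because the copies are so alike the signals of their probes are uncertain between them. It had 19.6, 18.2 and 22.0 multiples with combined treatment, 11.1, 10.9 and 16.1 with MG132, 1.04, 0.893 and 0.741 with 4OHT and 0.791, 0.832 and 0.988 in untreated cells. Both MG132 groups stood clear of the others, while the 4OHT and untreated arrays overlapped. The rise with MG132 was 14.4-fold (log2 3.85 ± 0.18; adjusted p = 4.44e-07) and that of combined treatment over 4OHT 22.5-fold (log2 4.49 ± 0.18; adjusted p = 1.54e-07). On slide 1 alone the first was 3.67 (adjusted p = 1.18e-04). With 4OHT against untreated cells the difference was 0.03 ± 0.18 (adjusted p = 0.932). Combined treatment exceeded MG132 by 0.67 ± 0.18 (adjusted p = 0.0198), but by 0.31 within slide 2 (adjusted p = 0.261), and the call was also lost without MG132 replicate 1 or 2 or combined-treatment replicate 1 or 3 (adjusted p 0.0548 to 0.0774).

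Hspa8, the constitutive HSP70 of the cytosol, moved far less. Its signal was 447, 442 and 446 multiples with combined treatment, 342, 373 and 376 with MG132, 330.3, 300.5 and 250.3 with 4OHT and 238, 233 and 234 in untreated cells. The groups kept apart, with untreated arrays lowest in a narrow band and 4OHT replicate 3 closest to them. MG132 raised Hspa8 1.55-fold over untreated cells (log2 0.63 ± 0.10; adjusted p = 7.99e-04), and all 4 of its probes were called higher, by 0.63 to 1.20. The other rise under MG132, of combined treatment over 4OHT, was 0.61 ± 0.10 (adjusted p = 8.05e-04; 0.53 with slide as a term, adjusted p = 0.0803). The rise with 4OHT was small (0.31 ± 0.10; adjusted p = 0.0455) and was lost on leaving out any single array other than 4OHT replicate 3 (adjusted p 0.0537 to 0.120), with median centring (0.15; adjusted p = 0.288) and with quantile normalization (0.23; adjusted p = 0.173). Combined treatment differed from MG132 by 0.29 ± 0.10 (adjusted p = 0.0618; 0.0266 without 4OHT replicate 1 and 0.0353 with only the arrays compared).

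Hspa1l, a testis-type HSP70 gene that lies beside Hspa1a, was close to background. It was well above background on 3 combined-treatment, 2 MG132, 1 4OHT and 3 untreated arrays, with signals of 0.0155 to 0.0628 multiples, and it was called in no comparison, though without 4OHT replicate 1 it was called higher with combined treatment than with 4OHT (1.04; adjusted p = 0.0175).

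**Figure D1:**
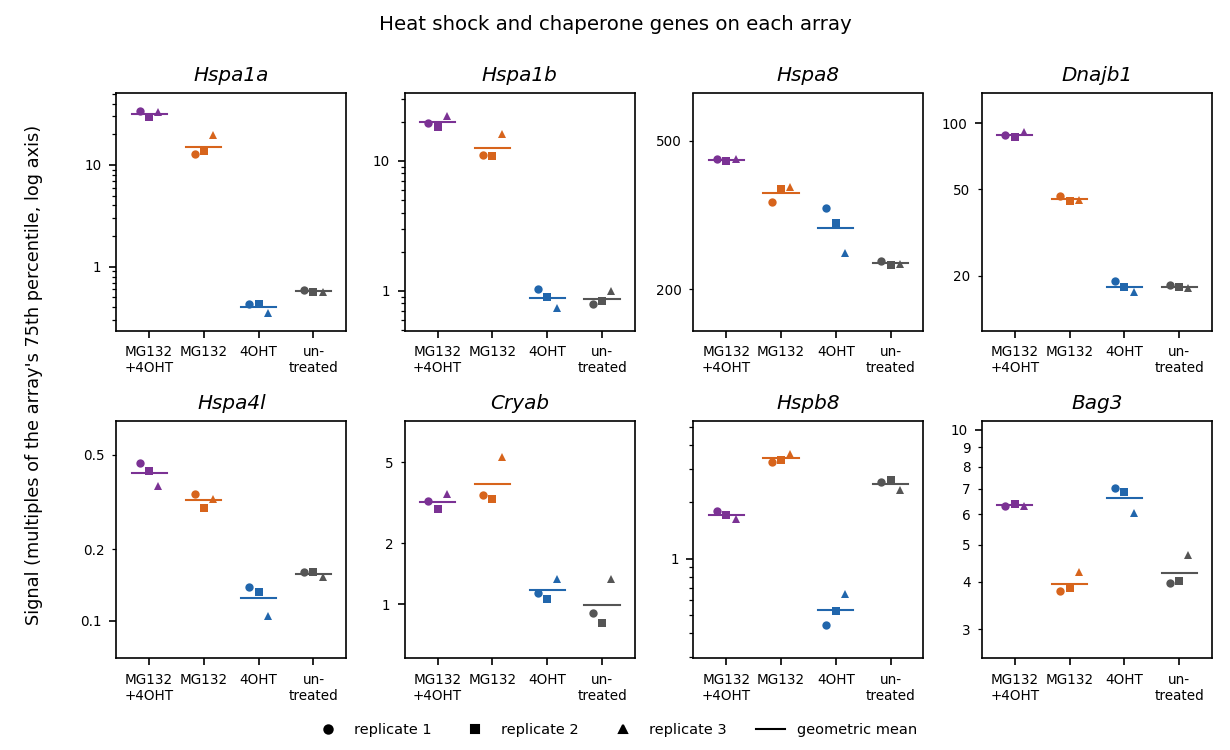
Signal of 8 members on each of the 12 arrays, in multiples of the array's 75th percentile on log axes; symbols are replicates and lines geometric means of 3 arrays. Hspa1a, Hspa1b, Dnajb1 and Hspa4l stand highest with combined treatment, Hspb8 is lowest with 4OHT alone, and Bag3 is high in both groups given 4OHT.

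The HSP110 genes encode nucleotide exchange factors of HSP70, and the 3 members went different ways with MG132. Hspa4l had 0.461, 0.425 and 0.370 multiples with combined treatment, 0.341, 0.298 and 0.325 with MG132, 0.139, 0.132 and 0.104 with 4OHT and 0.161, 0.160 and 0.153 in untreated cells, with no overlap between groups. It was 2.03-fold higher with MG132 than in untreated cells (log2 1.02 ± 0.13; adjusted p = 1.31e-04; 1.01 on slide 1 alone) and 3.36-fold higher with combined treatment than with 4OHT (log2 1.75 ± 0.13; adjusted p = 3.57e-06). The size of both rises depends on the processing: they were 0.61 and 0.97 with normexp, both below 2-fold, and 0.68 and 1.51 with median centring. All of these were still called. The further rise over MG132 alone was 0.38 ± 0.13 (adjusted p = 0.0492; 0.36 within slide 2, adjusted p = 0.237), and 9 of the 12 fits that left out 1 array lost it (adjusted p 0.0567 to 0.165), the exceptions being those without 4OHT replicate 1 or 3 or combined-treatment replicate 3. Median centring lost it too (0.31; adjusted p = 0.108). With 4OHT against untreated cells the difference was -0.35 ± 0.13 (adjusted p = 0.0641), called lower with median centring (-0.51), with quantile normalization (-0.46) and without 4OHT replicate 1 (adjusted p = 0.0362).

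Hsph1, the heat-inducible HSP110, had 45.8, 43.9 and 57.8 multiples with combined treatment, 26.1, 25.3 and 35.1 with MG132, 38.1, 31.5 and 27.7 with 4OHT and 20.4, 19.5 and 22.3 in untreated cells. Combined-treatment arrays were highest and untreated arrays lowest, and replicate 3 was the highest array in both MG132 groups. The rise with MG132 was 0.46 ± 0.17 (adjusted p = 0.0472), 0.31 on slide 1 alone (adjusted p = 0.163), and 8 of the 12 fits without 1 array lost it (adjusted p 0.0566 to 0.161): those without any untreated array, 4OHT replicate 2, MG132 replicate 1 or 3, or combined-treatment replicate 1 or 2. The rise with 4OHT was 0.63 ± 0.17 (adjusted p = 0.0166), and did not pass without 4OHT replicate 1 or without untreated replicate 1 or 2 (adjusted p 0.0517 to 0.0608). Combined treatment exceeded MG132 by 0.78 ± 0.17 (adjusted p = 0.00767; 0.48 within slide 2, adjusted p = 0.211) and 4OHT by 0.60 ± 0.17 (adjusted p = 0.0128; 0.15 with slide as a term, adjusted p = 0.723; adjusted p = 0.0520 without combined-treatment replicate 3). With median centring neither the MG132 rise (0.12; adjusted p = 0.496) nor that over 4OHT (0.36; adjusted p = 0.0550) was called.

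Hspa4, the constitutive HSP110, fell with MG132 both without and with 4OHT. It had 105, 103 and 88.2 multiples with combined treatment, 79.1, 72.5 and 66.3 with MG132, 139, 127 and 119 with 4OHT and 96.1, 94.6 and 97.0 in untreated cells; 4OHT arrays were highest and MG132 arrays lowest. It was 1.32-fold lower with MG132 than in untreated cells (log2 -0.40 ± 0.10; adjusted p = 0.00999), -0.34 on slide 1 alone (adjusted p = 0.0503), and was 1.30-fold lower with combined treatment than with 4OHT (log2 -0.38 ± 0.10; adjusted p = 0.0119; -0.19 with slide as a term, adjusted p = 0.502). 4OHT raised it by 0.42 ± 0.10 over untreated cells (adjusted p = 0.0127) and by 0.44 ± 0.10 over MG132 (adjusted p = 0.0118; 0.0513 without combined-treatment replicate 1). Neither rise was called with median centring (0.26, adjusted p = 0.154; 0.37, adjusted p = 0.0503). With quantile normalization the second was 0.17 (adjusted p = 0.392) and the fall with MG132 -0.22 (adjusted p = 0.230), neither called. Within slide 2 the rise over MG132 was 0.57 (adjusted p = 0.0996).

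Dnajb1, the heat-inducible HSP40 that brings clients to HSP70, combined a rise with MG132 and a second rise on adding 4OHT to it. Its signals were 88.4, 86.6 and 91.5 multiples with combined treatment, 46.5, 44.0 and 44.5 with MG132, 19.0, 17.7 and 16.8 with 4OHT and 18.2, 17.7 and 17.6 in untreated cells. The 3 arrays of each MG132 group lay within a few percent of each other, and only the 4OHT and untreated arrays overlapped. Dnajb1 was 2.52-fold higher with MG132 than in untreated cells (log2 1.33 ± 0.08; adjusted p = 1.68e-06; 1.34 on slide 1 alone) and 4.98-fold higher with combined treatment than with 4OHT (log2 2.32 ± 0.08; adjusted p = 5.62e-08; 2.34 with slide as a term). Combined treatment was 1.97-fold above MG132 (log2 0.98 ± 0.08; adjusted p = 3.52e-05), and 1.00 within slide 2 (adjusted p = 0.0302). 4OHT alone differed from untreated cells by -0.00 ± 0.08 (adjusted p = 0.977).

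Dnajb4, another HSP40 gene, was dim, with 0.136, 0.145 and 0.116 multiples with combined treatment, 0.205, 0.232 and 0.230 with MG132, 0.0829, 0.0742 and 0.0808 with 4OHT and 0.126, 0.106 and 0.132 in untreated cells. MG132 arrays were highest and 4OHT arrays lowest. It rose by 0.88 ± 0.12 with MG132 (adjusted p = 2.22e-04; 0.85 on slide 1 alone) and by 0.73 ± 0.12 with combined treatment over 4OHT (adjusted p = 5.63e-04; 0.66 with slide as a term, adjusted p = 0.0639). Combined treatment was below MG132 (log2 -0.75 ± 0.12; adjusted p = 0.00145; -0.80 within slide 2, adjusted p = 0.0688), and 4OHT below untreated cells (-0.61 ± 0.12; adjusted p = 0.00325). That last direction does not hold across the processing: its other probe gave 0.56, not called, and normexp background correction gave 0.01. For combined treatment over 4OHT that probe gave 0.03, also not called. With normexp the rise over 4OHT was 0.24 (adjusted p = 0.0769) and the fall against MG132 -0.22 (adjusted p = 0.125), neither called.

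Dnaja1, a farnesylated HSP40, had 148, 144 and 142 multiples with combined treatment, 102, 95.7 and 110.4 with MG132, 123, 114 and 104 with 4OHT and 80.4, 81.5 and 89.0 in untreated cells. The untreated arrays were lowest and the combined-treatment arrays highest. The rise with MG132 was 0.30 ± 0.09 (adjusted p = 0.0258), but -0.04 with median centring and 0.24 on slide 1 alone (adjusted p = 0.150), and it was lost without untreated replicate 1 or 2 or MG132 replicate 1 or 3 (adjusted p 0.0611 to 0.0860). Its rise with 4OHT was 0.44 ± 0.09 over untreated cells (adjusted p = 0.00518) and 0.49 ± 0.09 over MG132 (adjusted p = 0.00397; 0.39 within slide 2, adjusted p = 0.103). Combined treatment exceeded 4OHT by 0.35 ± 0.09 (adjusted p = 0.0107; 0.19 with slide as a term, adjusted p = 0.450). With quantile normalization neither the rise over 4OHT (0.24; adjusted p = 0.0797) nor that over MG132 (0.27; adjusted p = 0.0743) was called, and with the mean over probes the rise with 4OHT alone was 0.32 (adjusted p = 0.147). All 3 of its probes were called higher with MG132 (0.30 to 0.79) and with combined treatment over 4OHT (0.35 to 0.82). Of the 3, 1 was called for the rise with 4OHT alone (0.21 to 0.44) and 1 for that over MG132 (0.13 to 0.49).

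The small heat shock proteins hold unfolded clients without using ATP. Of the 4 genes here, Bag3 included, Cryab and Hspb8 rose with MG132, beside 24.1% of all genes. Cryab, which encodes alpha B crystallin, had 3.21, 2.95 and 3.48 multiples with combined treatment, 3.47, 3.29 and 5.32 with MG132, 1.13, 1.06 and 1.34 with 4OHT and 0.904, 0.811 and 1.33 in untreated cells. Arrays with MG132 were clear of those without it, and 4OHT and untreated arrays overlapped. Replicate 3 was highest in all 4 groups, and Cryab was the 1 member of 33 called when the replicate 3 arrays were set against replicates 1 and 2 across groups (log2 0.44 ± 0.09; adjusted p = 0.0159; 10.1% of all genes were called). It rose 3.97-fold with MG132 (log2 1.99 ± 0.22; adjusted p = 6.70e-05; 1.77 on slide 1 alone, adjusted p = 0.00170) and 2.74-fold with combined treatment over 4OHT (log2 1.45 ± 0.22; adjusted p = 3.75e-04; 0.80 with slide as a term, adjusted p = 0.116). The slide term rests on MG132 replicate 3 against replicates 1 and 2, so slide and replicate 3 cannot be told apart in it. The other 26 of 27 alternatives kept the second call, among them slide and a replicate block together. Adding 4OHT gave 0.24 ± 0.22 without MG132 (adjusted p = 0.465) and -0.29 ± 0.22 with it (adjusted p = 0.348).

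Hspb8, a small heat shock protein that works with Bag3 in sending clients to autophagy, was the member that 4OHT lowered most. It had 1.78, 1.71 and 1.63 multiples with combined treatment, 3.28, 3.36 and 3.58 with MG132, 0.442, 0.524 and 0.646 with 4OHT and 2.54, 2.63 and 2.30 in untreated cells, with no overlap between groups. 4OHT lowered it 4.68-fold against untreated cells (log2 -2.23 ± 0.13; adjusted p = 1.72e-06) and combined treatment 2.0-fold against MG132 (log2 -1.0 ± 0.13; adjusted p = 5.52e-04; -1.07 within slide 2, adjusted p = 0.0302). MG132 raised it by 0.45 ± 0.13 over untreated cells (adjusted p = 0.0170; 0.42 on slide 1 alone, adjusted p = 0.10; adjusted p = 0.0522 and 0.0611 without MG132 replicate 3 and without untreated replicate 3). With median centring that rise was 0.12 and not called (adjusted p = 0.572). Combined treatment was 3.21-fold above 4OHT (log2 1.68 ± 0.13; adjusted p = 5.43e-06; 1.57 with slide as a term, adjusted p = 0.00288).

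Bag3, the HSP70 cochaperone, rose with 4OHT in both states of MG132. Its signals were 6.30, 6.40 and 6.31 multiples with combined treatment, 3.78, 3.84 and 4.25 with MG132, 7.01, 6.85 and 6.07 with 4OHT and 3.97, 4.02 and 4.69 in untreated cells. Every array with 4OHT lay above every array without it. The rise with 4OHT was 1.57-fold over untreated cells (log2 0.65 ± 0.10; adjusted p = 7.33e-04) and 1.60-fold over MG132 (log2 0.68 ± 0.10; adjusted p = 9.51e-04; 0.58 within slide 2, adjusted p = 0.0555). MG132 gave -0.09 ± 0.10 without 4OHT (adjusted p = 0.483) and -0.07 ± 0.10 with it (adjusted p = 0.606); with median centring both were called lower, at -0.43 and -0.31. Hspb1, the small heat shock protein HSP25, ranged over 232 to 281 multiples in all 12 arrays and was called in no comparison; its difference with MG132 was -0.19 ± 0.08 (adjusted p = 0.0712) and was called lower with median centring (-0.53), quantile normalization (-0.32) and normexp (-0.26).

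HSP90 folds signalling proteins such as kinases and steroid receptors, helped by cochaperones. Of its 7 genes here none was called higher and 2 fell with MG132 against untreated cells, where 24.1% of all genes rose and 19% fell. With median centring 4 fell, and without 4OHT replicate 1 Hsp90aa1 was called higher. Hsp90aa1, the inducible HSP90, had 391, 370.0 and 389 multiples with combined treatment, 307, 320.5 and 342 with MG132, 123, 263 and 284 with 4OHT and 257, 249 and 231 in untreated cells. Every array with MG132 stood above every array without it, and 4OHT replicate 1 was far below its partners. Its difference with MG132 was 0.40 ± 0.26 (adjusted p = 0.246), where the SE, shared by the 4 groups, takes in that array. Without 4OHT replicate 1 the same difference of 0.40 had an SE of 0.08 and was called (adjusted p = 0.00278), as it was with MG132 and untreated arrays alone (adjusted p = 0.0128). The difference with 4OHT was -0.23 ± 0.26 (adjusted p = 0.554), and that of combined treatment against MG132 0.25 ± 0.26 (adjusted p = 0.50; 0.0389 without 4OHT replicate 1). It rose with combined treatment over 4OHT (0.87 ± 0.26; adjusted p = 0.0165), by 0.49 without 4OHT replicate 1 (adjusted p = 0.00157) and by 0.75 with slide as a term (adjusted p = 0.316). That rise was not called with median centring (0.63; adjusted p = 0.0927) or quantile normalization (0.65; adjusted p = 0.0516).

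Hsp90ab1, the constitutive HSP90, had 441, 405 and 389 multiples with combined treatment, 361, 375 and 392 with MG132, 369.8, 372 and 379 with 4OHT and 355, 336 and 349 in untreated cells. Untreated arrays were lowest by a small margin, and the differences were 0.12 ± 0.08 with MG132, 0.11 ± 0.08 with 4OHT, 0.13 ± 0.08 for combined treatment against MG132 and 0.14 ± 0.08 against 4OHT, none of them called (adjusted p 0.176 to 0.351). Ahsa1, an activator of the HSP90 ATPase, ranged over 155 to 201 multiples and was not called in any comparison.

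Fkbp4, an immunophilin of steroid receptor complexes, was called lower in all 4 comparisons of 2 groups through its brightest probe. It had 9.81, 10.0 and 10.7 multiples with combined treatment, 12.5, 13.0 and 13.0 with MG132, 16.0, 14.3 and 14.0 with 4OHT and 18.4, 19.1 and 18.2 in untreated cells, and the groups followed this order from low to high without overlap. The differences were -0.53 ± 0.08 with MG132 (adjusted p = 5.21e-04), -0.33 ± 0.08 with 4OHT (adjusted p = 0.0118), -0.34 ± 0.08 for combined treatment against MG132 (adjusted p = 0.0136) and -0.54 ± 0.08 against 4OHT (adjusted p = 3.94e-04). On slide 1 alone the first was -0.54 (adjusted p = 0.00824), and within slide 2 the difference from MG132 was -0.36 (adjusted p = 0.138). The 4OHT call was lost without untreated replicate 2 (adjusted p = 0.0518) and that against MG132 without combined-treatment replicate 1 or 2 (adjusted p 0.0525 to 0.0565). Its second probe was called lower with 4OHT and for combined treatment against MG132, but gave -0.17 with MG132 and -0.11 for combined treatment against 4OHT, neither called.

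Cacybp, which binds the ubiquitin ligase adaptor Siah and HSP90, had 53.1, 49.5 and 49.9 multiples with combined treatment, 46.5, 43.3 and 47.4 with MG132, 66.6, 73.1 and 72.1 with 4OHT and 57.1, 62.3 and 63.5 in untreated cells. Both groups with MG132 were below both groups without it. It fell with MG132 (-0.41 ± 0.08; adjusted p = 0.00279; -0.44 on slide 1 alone) and with combined treatment against 4OHT (-0.47 ± 0.08; adjusted p = 0.00106; -0.55 with slide as a term), and its changes with 4OHT were not called in either state (0.21 and 0.15).

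Chordc1, a zinc-binding HSP90 partner and 1 of the members with the 3-unit motif shown above, rose with 4OHT in both states of MG132. It had 8.92, 8.17 and 8.43 multiples with combined treatment, 6.75, 6.04 and 7.14 with MG132, 10.8, 9.99 and 8.89 with 4OHT and 7.26, 7.14 and 7.38 in untreated cells. Arrays with 4OHT were above all arrays without it. Its rise with 4OHT was 0.44 ± 0.10 over untreated cells (adjusted p = 0.00717) and 0.36 ± 0.10 over MG132 (adjusted p = 0.0230), but 0.25 within slide 2 (adjusted p = 0.238), and this last call was lost without MG132 replicate 1 or 2 or any combined-treatment array (adjusted p 0.0502 to 0.0917), and with quantile normalization (0.27; adjusted p = 0.0608). MG132 gave -0.13 without and -0.21 with 4OHT, neither called; with median centring both were called lower, at -0.47 and -0.46. Stip1, which bridges HSP70 and HSP90, was lower with combined treatment than with 4OHT (-0.24 ± 0.08; adjusted p = 0.0240; -0.22 with slide as a term, adjusted p = 0.294), lost without 4OHT replicate 2 or combined-treatment replicate 1 or 2 (adjusted p 0.0603 to 0.0864) and with quantile normalization (-0.14; adjusted p = 0.178). It was called in no other comparison, except lower with MG132 under median centring (-0.42).

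Ubb, a polyubiquitin gene whose product marks proteins for the proteasome, had 539.6, 525 and 531 multiples with combined treatment, 420.2, 442 and 482 with MG132, 439.8, 376 and 383 with 4OHT and 340.3, 339 and 346 in untreated cells. The arrays of the combined treatment were highest and untreated arrays lowest. Ubb rose with MG132 (0.39 ± 0.09; adjusted p = 0.00546; 0.33 on slide 1 alone, adjusted p = 0.0536) and with combined treatment over 4OHT (0.42 ± 0.09; adjusted p = 0.00316; 0.25 with slide as a term, adjusted p = 0.272). With median centring those differences were 0.05 and 0.17 and not called. Its changes with 4OHT were 0.22 without and 0.25 with MG132, neither called, though the second was called without 4OHT replicate 1 (adjusted p = 0.0273).

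Hsf1, the gene of the heat shock transcription factor itself, had 4.67, 4.38 and 4.45 multiples with combined treatment, 4.57, 4.68 and 4.14 with MG132, 5.21, 4.17 and 4.32 with 4OHT and 3.86, 3.76 and 4.09 in untreated cells. Untreated arrays were lowest and the other groups overlapped. No difference was called: 0.19 ± 0.10 with MG132, 0.22 ± 0.10 with 4OHT, 0.01 ± 0.10 for combined treatment against MG132 and -0.02 ± 0.10 against 4OHT (adjusted p 0.140 to 0.934). The arrays measure the transcript of Hsf1 and not the activity of its protein. Of the mitochondrial chaperonin, whose ring is Hspd1 and lid is Hspe1, Hspd1 was lower with combined treatment than with 4OHT (-0.30 ± 0.09; adjusted p = 0.0156; -0.32 with slide as a term, adjusted p = 0.205; 0.0504 without combined-treatment replicate 2). With MG132 alone Hspd1 differed by -0.23 ± 0.09 (adjusted p = 0.0597) and was called lower with normexp (-0.28), with median centring (-0.57) and without 4OHT replicate 1 (adjusted p = 0.0199). Of the 2 Hspd1 probes 1 was called lower with MG132 alone, and they gave -0.55 and -0.23. Hspe1 ranged over 95.7 to 118 multiples and through its brightest probe was called in no comparison, except higher with MG132 under quantile normalization (0.23). Of its 3 probes 1 was called higher with combined treatment than with 4OHT, where they gave 0.14 to 0.60.

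**Figure D2:**
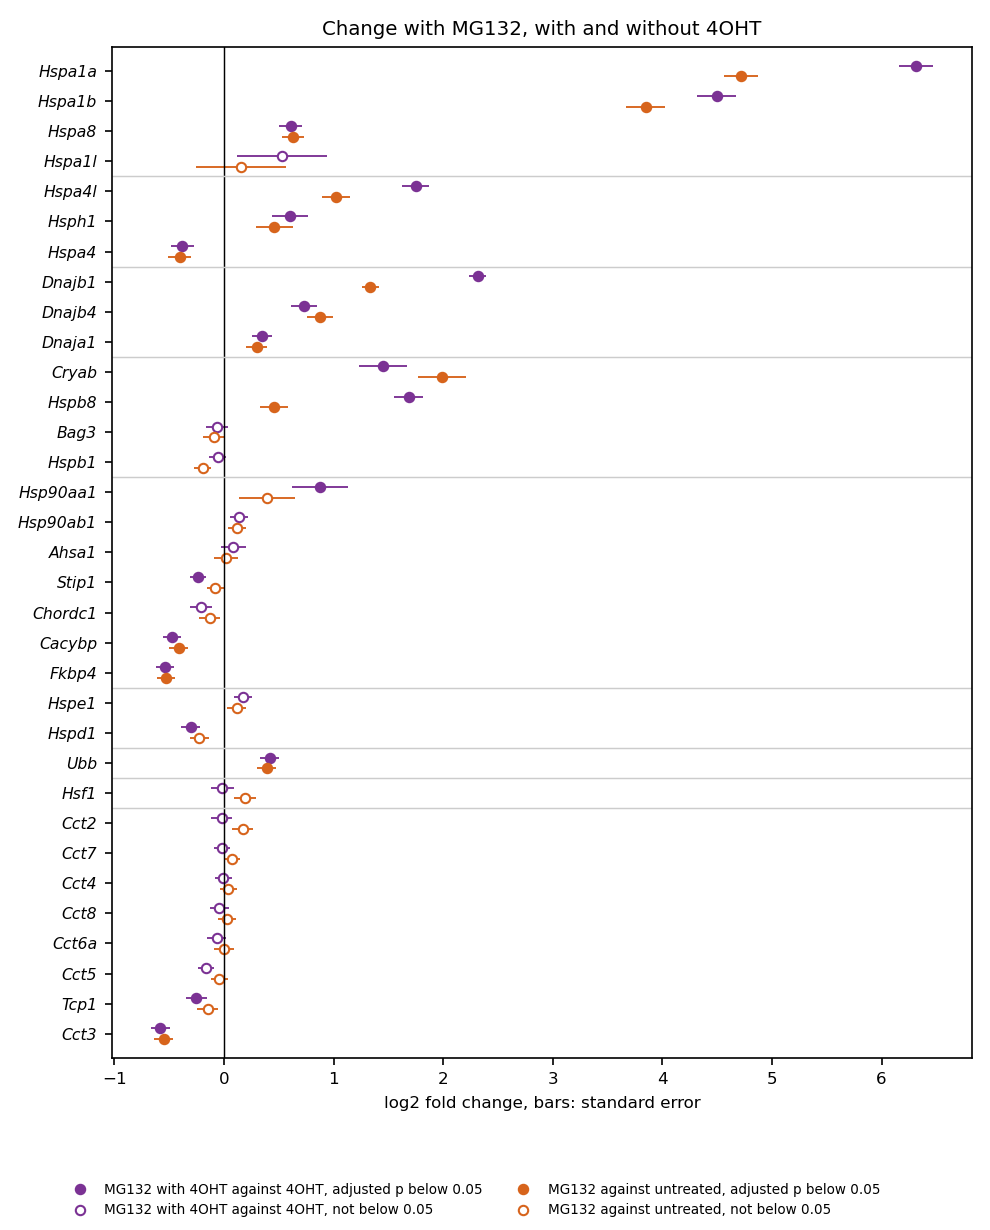
Change of the 33 members with MG132, as combined treatment against 4OHT (upper point of each row) and MG132 against untreated cells (lower point); the x axis is the log2 difference with its standard error, filled points have an adjusted p below 0.05, and grey lines separate families. Hspa1a reaches 6.31 and 4.72, while the CCT subunits lie between -0.58 and 0.17.

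Of the 8 CCT subunits Cct3 fell with MG132 and none rose, where 19% of all genes fell and 24.1% rose. Cct3, which encodes CCT gamma, had 32.5, 32.6 and 32.8 multiples with combined treatment, 30.3, 30.8 and 29.4 with MG132, 55.0, 45.3 and 46.5 with 4OHT and 43.4, 44.4 and 44.7 in untreated cells. Both MG132 groups were below both groups without MG132. Cct3 fell 1.46-fold with MG132 (log2 -0.55 ± 0.09; adjusted p = 6.76e-04; -0.53 on slide 1 alone) and 1.5-fold with combined treatment against 4OHT (log2 -0.58 ± 0.09; adjusted p = 3.87e-04; -0.53 with slide as a term), and all 3 of its probes were called lower in both. The other 7 subunits differed from untreated cells by -0.15 to 0.17 with MG132 and were not called, but with median centring 7 of the 8 fell. Under that scaling 48.7% of all genes were called, 27.6% of them higher.

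Tcp1, the subunit CCT alpha, had 54.3, 53.6 and 54.4 multiples with combined treatment, 47.2, 45.7 and 42.2 with MG132, 72.7, 64.0 and 57.9 with 4OHT and 48.6, 51.1 and 50.1 in untreated cells. The 4OHT arrays were highest and the MG132 arrays lowest. Tcp1 rose with 4OHT (0.37 ± 0.10; adjusted p = 0.0149; 0.0562 without untreated replicate 1), but not with median centring (0.21; adjusted p = 0.173) or quantile normalization (0.34; adjusted p = 0.0625). It was lower with combined treatment than with 4OHT (-0.25 ± 0.10; adjusted p = 0.0477; -0.12 with slide as a term, adjusted p = 0.675), a call kept only without MG132 replicate 3 or 4OHT replicate 3 among the 12 fits that left out 1 array, and lost with quantile normalization (adjusted p = 0.115). Its differences of -0.15 ± 0.10 with MG132 and 0.27 ± 0.10 for combined treatment against MG132 were not called, but the second was without 4OHT replicate 1 (adjusted p = 0.0244).

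**Figure D3:**
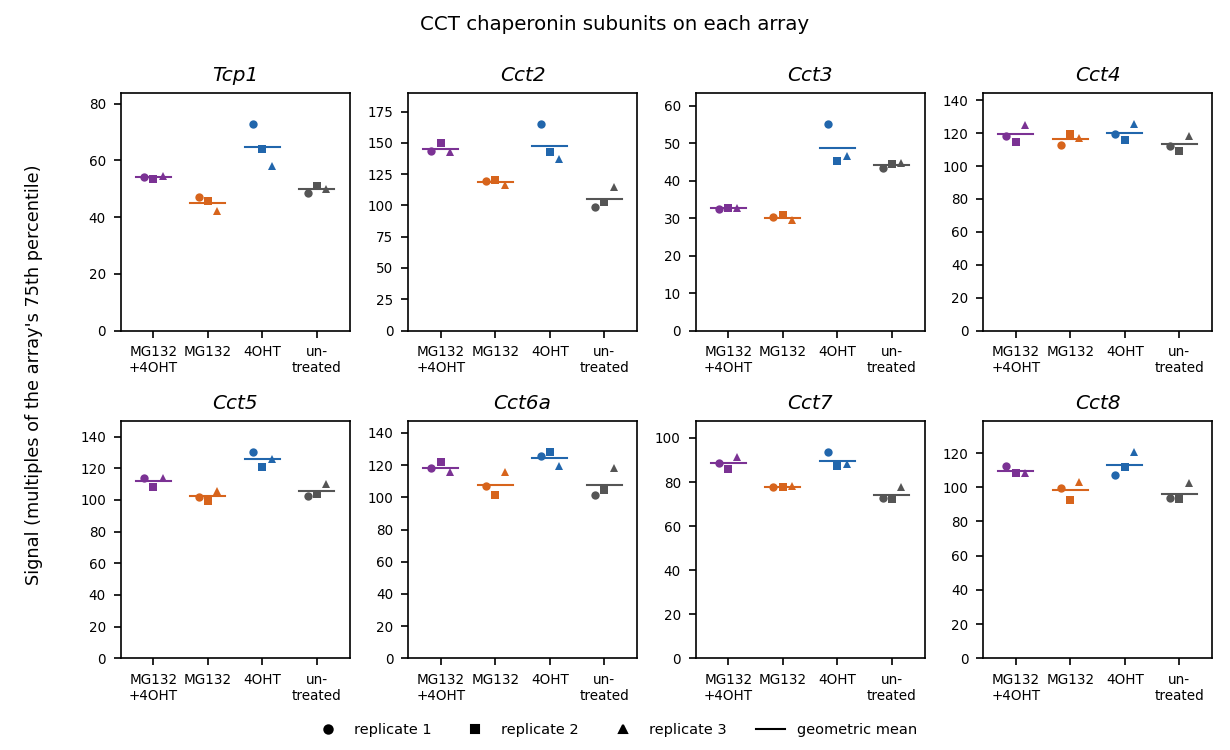
Signal of the 8 CCT subunits on each of the 12 arrays, in multiples of the array's 75th percentile on axes from 0; symbols are replicates and lines geometric means of 3 arrays. Cct3 is lower in both MG132 groups, and each subunit has its highest mean with 4OHT alone, but for Cct2, Cct4, Cct6a, Cct7 and Cct8 the combined-treatment and 4OHT arrays overlap.

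4OHT alone raised Bag3, 4 of the 8 CCT subunits and 2 of the 3 HSP110 genes, and lowered Hspb8 most. Against untreated cells 10 of the 33 members rose and 4 fell, where 28.6% of all genes were called, 13.9% up and 14.7% down, and the members' median change was 0.19, beside 0.03 over all genes. Those that rose were Bag3, Hsph1, Cct2, Dnaja1, Chordc1, Hspa4, Tcp1, Hspa8, Cct7 and Cct5, and those that fell were Hspb8, Dnajb4, Hspa1a and Fkbp4. Groups did not overlap for 24 members and 40.9% of all genes, and 1 member, Hspb8, was called with at least a 2-fold change, beside 11.1% of all genes. All these arrays lay on slide 1. With median centring 5 rose and 5 fell, and with normexp background correction 10 rose and 2 fell. With normexp 38.2% of all genes were called, 68.4% of them higher, and the members' median was 0.14, beside 0.16 over all genes. With dim probes kept the medians were 0.19 and 0.25, so the members' lead over all genes did not hold across the processing. The count was 8 without untreated replicate 1 and also 8 without untreated replicate 2.

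Of the CCT subunits, 4 of 8 rose with 4OHT, beside 13.9% of all genes, and with median centring 1 of 8 did. Cct2, or CCT beta, had 165, 142 and 137 multiples with 4OHT and 98.8, 103 and 115 in untreated cells, without overlap (log2 0.49 ± 0.10; adjusted p = 0.00348). Cct7 rose by 0.28 ± 0.07 (adjusted p = 0.0188; 0.0699 and 0.0754 without untreated replicates 1 and 2, and 0.382 with median centring) and Cct5 by 0.25 ± 0.08 (adjusted p = 0.0317); the rise of Cct5 did not pass without combined-treatment replicate 1 or 2, 4OHT replicate 1 or untreated replicate 1 or 2 (adjusted p 0.0504 to 0.108), nor with median centring (0.09) or quantile normalization (0.24; adjusted p = 0.0580). Cct3, Cct4, Cct6a and Cct8 differed by 0.08 to 0.23 and were not called; Cct8 was called with quantile normalization (0.25) and without 4OHT replicate 1 (0.27). Over all 12 arrays Cct4 ranged over 109 to 125 multiples, Cct6a over 101 to 128 and Cct8 over 92.5 to 121, and through their brightest probes these 3 were called in no comparison with all arrays and the scaling used here. Other probes were: 2 of 3 for Cct4 lower with combined treatment against 4OHT (as low as -0.42), 1 of 2 for Cct6a lower with MG132 (-0.23) and 1 of 2 for Cct8 higher with combined treatment against MG132 (0.26). Cct5 ranged over 99.2 to 130 multiples and Cct7 over 72.2 to 93.5.

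Adding 4OHT to MG132 raised 10 members and lowered 3, where 26.5% of all genes were called, 13.9% up and 12.6% down; the members' median was 0.15, beside 0.07 over all genes. Those that rose were Hspa1a, Dnajb1, Hsph1, Bag3, Hspa1b, Dnaja1, Hspa4, Hspa4l, Chordc1 and Cct2, and those that fell were Hspb8, Dnajb4 and Fkbp4. Groups did not overlap for 23 members and 50.2% of all genes, and 1 member, Hspa1a, was called with at least a 2-fold change, beside 7.25% of all genes. Of its 6 arrays, 2 of MG132 lay on slide 1 and the other 4 on slide 2: with slide as a term 6 were called and 11.1% of all genes, and within slide 2 Dnajb1 and Hspb8 alone were called, 2 of 33, where 7.79% of all genes were. The count was 7 without combined-treatment replicate 1. With quantile normalization 6 rose and 3 fell, and the members' median was -0.05. Cct2 differed by 0.29 ± 0.10 (adjusted p = 0.0456; 0.32 within slide 2, adjusted p = 0.148), and 9 of the 12 fits without 1 array lost the call (adjusted p 0.0551 to 0.135), the exceptions being those without untreated replicate 3 or 4OHT replicate 1 or 3. It was also lost with median centring (0.23) and quantile normalization (0.08; adjusted p = 0.697).

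**Figure D4:**
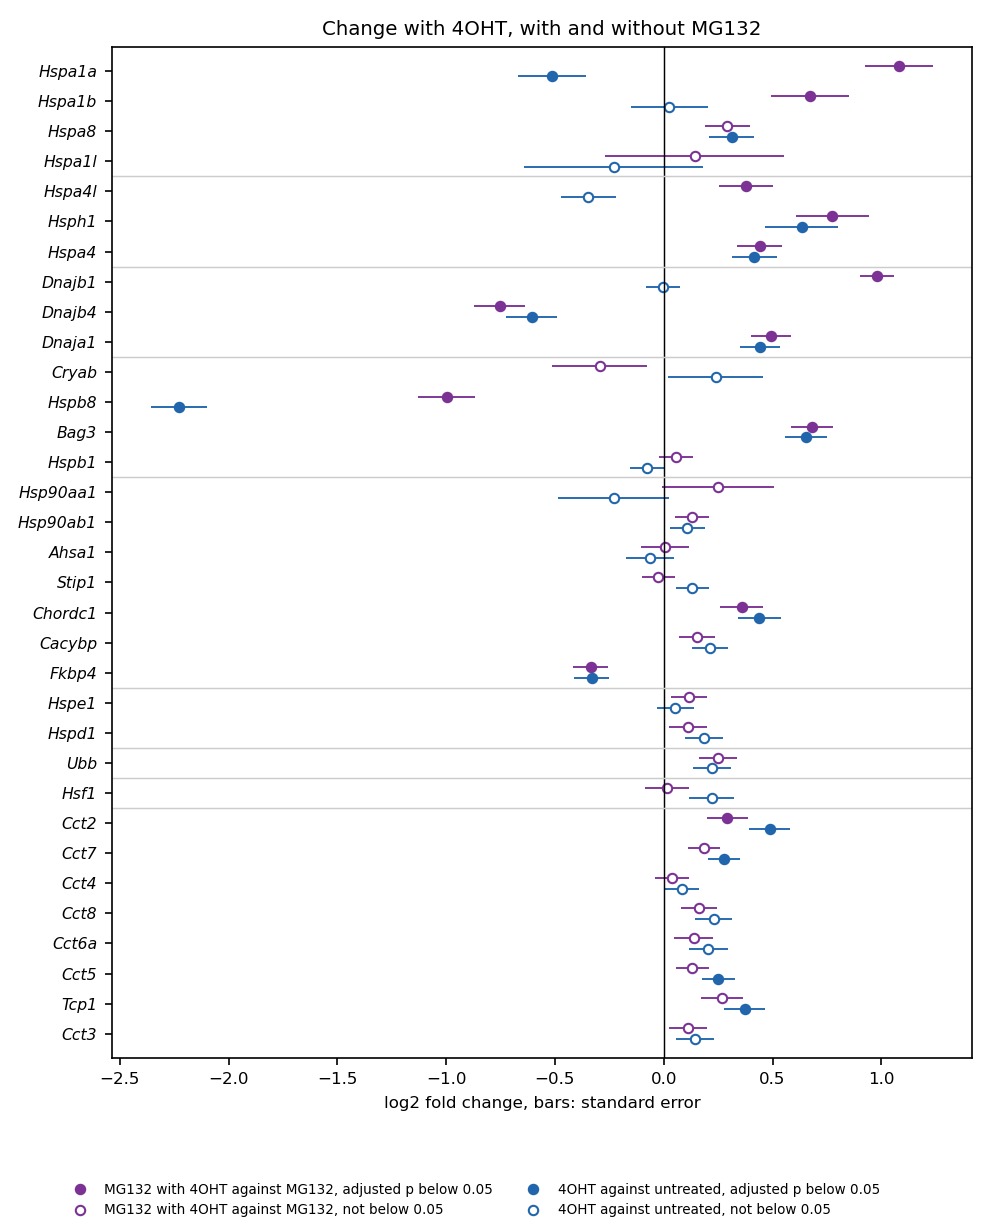
Change of the 33 members with 4OHT, as combined treatment against MG132 (upper point of each row) and 4OHT against untreated cells (lower point); the x axis is the log2 difference with its standard error, filled points have an adjusted p below 0.05, and grey lines separate families. The points of Hspa1a, Dnajb1, Hspa4l and Hspb8 are apart, at 1.08 and -0.51, 0.98 and -0.00, 0.38 and -0.35, and -1.0 and -2.23.

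Whether the response to 4OHT depended on MG132 was tested as the difference between both responses, and 4 of the 33 members were called, all with the more positive response under MG132; 6.56% of all genes were called, 2.94% in that direction and 3.61% in the other. For Hspa1a the 4OHT response with MG132 exceeded that without it by 1.59 ± 0.22 (adjusted p = 0.00301), for Hspb8 by 1.23 ± 0.18 (adjusted p = 0.00417), for Dnajb1 by 0.98 ± 0.11 (adjusted p = 0.00107) and for Hspa4l by 0.73 ± 0.18 (adjusted p = 0.0387). With slide as a term the values were 1.21, 1.16, 1.00 and 0.71, and the last was no longer called (adjusted p = 0.153). With slide and a replicate block together Hspb8 was no longer called either (1.19; adjusted p = 0.0665), while Hspa1a (1.16; adjusted p = 0.0316) and Dnajb1 (0.98; adjusted p = 0.0212) were. The Hspa4l call was also lost on leaving out any 1 array other than 4OHT replicate 1 or 3 or combined-treatment replicate 3 (adjusted p 0.0511 to 0.101), with normexp (0.36; adjusted p = 0.116) and with the mean over its probes, where it was 0.40; of its 3 probes 1 was called, and the 3 gave 0.19 to 0.73. For Hspa1b, whose signal is uncertain against that of Hspa1a, the same difference was 0.65 and not called (adjusted p = 0.172). It was not called with median centring (0.74), quantile normalization (0.48) or normexp (0.58) either. Hspb8 was lowered by 4OHT in both states, by less under MG132. No CCT subunit was called, and their differences lay between -0.19 and -0.03.

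Among 25 other cytosolic chaperones and cochaperones measured, 7 rose and 5 fell with MG132 against untreated cells, with a median of 0.10, beside the 24.1% and 19% of all genes given above. The largest rises were those of the HSP40 gene Dnaja4 (1.87 ± 0.15; adjusted p = 1.20e-05), the HSP40 gene Dnajb2 (1.5 ± 0.17; adjusted p = 7.32e-05) and the HSP70 gene Hspa2 (1.08 ± 0.08; adjusted p = 6.16e-06). Dnaja4 had 0.502, 0.493 and 0.565 multiples with combined treatment, 0.452, 0.509 and 0.578 with MG132, 0.132, 0.107 and 0.0897 with 4OHT and 0.137, 0.127 and 0.158 in untreated cells, so both groups with MG132 were clear of both without it. With combined treatment against 4OHT, 8 of the 25 rose and 8 fell, beside 29.4% and 20.9% of all genes. With median centring the MG132 counts were 3 risen and 10 fallen, so the list as a whole had no direction that held across scalings.

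Prefoldin hands unfolded actin and tubulin to CCT, and 4 of its 6 subunit genes fell with MG132 and none rose, with a median of -0.48; with quantile normalization 2 fell. Over all genes 19% fell. The change was -0.80 ± 0.14 for Pfdn5 (adjusted p = 0.00141), -0.49 ± 0.14 for Pfdn2 (adjusted p = 0.0175) and -0.48 ± 0.11 for Vbp1 (adjusted p = 0.00548). With 4OHT alone 2 of the 6 rose, beside 13.9% of all genes: Pfdn4 by 0.68 ± 0.13 (adjusted p = 0.00259) and Vbp1 by 0.44 ± 0.11 (adjusted p = 0.0134). Of 9 genes of mitochondrial chaperones and proteases 3 fell with MG132, beside 19% of all genes, and none rose, led by the mitochondrial HSP90 gene Trap1 (-0.54 ± 0.08; adjusted p = 6.02e-04), with a median of -0.28; quantile normalization turned this into 2 risen and 2 fallen.

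Of 5 heat shock factor genes and regulators other than Hsf1, 4 rose with MG132, beside 24.1% of all genes, and 3 rose with median centring, quantile normalization or normexp. Hsf5, a germ-cell family member, had 0.654, 0.608 and 0.574 multiples with combined treatment, 0.401, 0.398 and 0.495 with MG132, 0.355, 0.281 and 0.120 with 4OHT and 0.0552, 0.0720 and 0.0423 in untreated cells. It was dim in untreated cells, and 4OHT replicate 3 was low among the 4OHT arrays. The rise was 2.96 ± 0.35 with MG132 (adjusted p = 9.45e-05) and 2.05 ± 0.35 with 4OHT (adjusted p = 0.00143). Hsbp1, which binds HSF1 and restrains it, rose by 1.00 ± 0.15 with MG132 (adjusted p = 4.98e-04), and Hsf4 by 0.81 ± 0.17 (adjusted p = 0.00379). Hsf4 was dimmer still than Hsf5 and close to the dimmest signals above background, with 0.0213 to 0.0275 multiples in untreated cells and 0.0401 to 0.0460 with MG132. Among 8 ubiquitin genes and receptors 4 rose and 1 fell with MG132, beside 24.1% and 19% of all genes. Zfand2a, a proteasome-associated zinc finger protein, rose by 1.94 ± 0.10 (adjusted p = 7.81e-07), and the autophagy receptor Sqstm1 by 1.35 ± 0.15 (adjusted p = 6.25e-05).

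Set beside the promoter motifs, the MG132 rises were spread over windows with and without a match. Of the 15 members whose window holds the 2-unit motif, 6 rose and 1 fell with MG132, and of the 12 without it 3 rose and 3 fell. The 6 include both Hspa1a and Hspa1b, whose windows were identical at 296 of 300 bases and whose probe signals are uncertain between the copies. Over all genes tested, with or without a motif, 24.1% rose and 19% fell. Of the 4 with the 3-unit motif Hsph1 rose, while Chordc1, Hspd1 and Hspe1 were not called. The matches of Hspd1 and Hspe1 are the same stretch of DNA, counted for both genes. Hspa8, Cryab, Hsp90aa1, Hsp90ab1, Hsf1 and Cct4 have no window in the table used and are not counted here.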

How the data were processed

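RNA of 12 cultures was hybridised to 1-colour Agilent arrays, 3 in each of 4 groups taken from the sample titles; the design text calls them biological replicates, and p-values measure only the spread between these arrays. The deposited intensity per spot came from Feature Extraction 11.0.1.1 with background subtraction and spatial detrending but no scaling between arrays, per the file headers. The array design was annotated on mm9. A deposited intensity table of the whole series held the same values.

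Signals were divided by each array's 75th percentile over non-control spots (62976 spots on an array, 3671 of them controls), outlier spots were left out, and log2 values were tested with limma 3.58.1 (R 4.3.3) over all 4 groups, with 8 residual and 2.08 prior degrees of freedom. Probes above background on every array of at least 1 group were kept (34331 of 56605), and a gene was read from its brightest probe, giving 26840 genes. P-values were adjusted by Benjamini-Hochberg over all of them, and a gene was called at 0.05. An exact test of 3 against 3 arrays cannot go below 0.1. No 2 arrays were identical. The number of arrays limits the precision.

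The files give accessions without gene names, so 32994 probes were named through RefSeq (GRCm38.p6), which also gave the promoter windows. Called members whose groups did not overlap were named, up to 12 rises and 6 falls in a comparison, with 8 members named in all of them and up to 3 genes of each other list. The members and lists were chosen with earlier results of these data known. The alternatives changed background correction (normexp with offset 50, on median signals, since the files used hold no mean signal), normalization, dim-probe filter, choice of probe, variance model, slide and replicate terms, arrays included and a 2-fold minimum.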

Additional observations from a re-analysis of the deposited data

Results flagged for a closer look

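The 4OHT response differed with MG132, by the test of the difference itself in limma, for 4 members: the response under MG132 minus that without it was 1.59 for Hspa1a, 1.23 for Hspb8, 0.98 for Dnajb1 and 0.73 for Hspa4l on the log2 scale. Hspa1b, whose probe signal is uncertain against that of Hspa1a, gave 0.65 and was not called (adjusted p = 0.172). With slide as a term Hspa4l was no longer called (adjusted p = 0.153), and with slide and a replicate block together Hspb8 was not called either (adjusted p = 0.0665). Slide 2 held all combined-treatment arrays and 1 MG132 array, and its part in these differences was not tested beyond that term.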

How the results depend on the processing

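Of 65 called changes of members in the 5 comparisons, all 65 held with the series-wide value table and 61 with slide as a random block (estimated correlation 0.0964), but 42 with slide as a fixed block, 53 with quantile normalization or without the dim-probe filter, and 49 with median centring. The cause of these losses was not tested. Changes that turned their sign were Dnaja1 with MG132 under median centring (-0.042) and Dnajb4 with 4OHT under normexp (0.012). Median centring lowered the share of rises among called genes to 27.6% with MG132, against 56% as reported, and to 30.9% with 4OHT, against 48.7%. The share with 4OHT was 68.4% with normexp, 40.8% with quantile normalization and 74% without the dim-probe filter.

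Counts below run in the order MG132, 4OHT, combined treatment against MG132, combined treatment against 4OHT, and the difference between the 4OHT responses. The members called were 15, 14, 13, 19 and 4 of 33, and the genes called in the other 5 chaperone lists 28, 17, 13, 32 and 3 of 53. A 2-fold minimum left 5, 1, 1, 6 and 2 members and 7, 2, 1, 8 and 1 other genes. Leaving out 1 array gave 12 to 17, 8 to 13, 7 to 17, 16 to 20 and 3 to 4 members, and 21 to 30, 8 to 17, 6 to 18, 24 to 32 and 1 to 4 other genes. With 4OHT, fitting only the arrays compared left 9 members and 5 other genes, and slide 1 alone left 9 other genes. For combined treatment against MG132, slide as a fixed block left 6 members and 4 other genes, slide 2 alone 2 and 3. In that comparison other genes numbered 8 with median centring, 6 without the dim-probe filter and 21 with an intensity trend and robust variance. Against 4OHT, slide as a fixed block left 8 members and 13 other genes. For the difference, other genes numbered 0 with that block, 1 with median centring or no filter, and 5 with the filter on all 12 arrays or the intensity trend. Without the replicate 3 arrays of all 4 groups, an alternative chosen after seeing the data, 15, 16, 13, 18 and 4 members were called.

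Deviations of same-numbered arrays correlated between 0.12 and 0.41 over the 6 pairs of replicate 3, but between -0.06 and 0.16 over the 12 pairs of replicates 1 and 2, so the numbers were not taken to pair the arrays. With a replicate block 16, 15, 12, 19 and 4 members were called, and 5 other genes for the difference. With the replicate block and slide together, combined treatment against MG132 kept 2 members and 5 other genes, against 4OHT 6 and 11, and the difference 2 and 1. Combined treatment against 4OHT has no array pair on 1 slide, so neither it nor the difference has a within-slide value, and the difference uses all arrays. Hspa1l alone among the members was not well above background on all 12 arrays. Dnajb4 and Hspa4l were above it but dim, and some of their changes were smaller with normexp. The change of Dnajb4 with 4OHT went from -0.61 to 0.01, and that of Hspa4l with combined treatment against 4OHT from 1.75 to 0.97.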

Other observations

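On 4OHT replicate 1, which had the lowest 75th percentile of the 12 arrays (309 intensity units), Hsp90aa1 had 123 multiples, against 263 and 284 on its partner arrays, and the pluripotency gene Pou5f1 had 54.5, against 81.7 and 87.8.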
